A study of Mus musculus with 24 samples.

Results

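The 40 genes described here belong to the machinery of transfer RNA charging, and they were followed through whole mouse spinal cord. They are 40 of the 38924 genes in the deposited tables. The cytosolic class holds 24 genes, namely the cytosolic aminoacyl-tRNA synthetases, the scaffold genes Aimp1, Aimp2 and Eef1e1, and the tRNA exporter Xpot. The mitochondrial class holds 16 synthetase genes whose symbols end in 2. The genes were chosen by symbol, through their Ensembl identifiers, and all 40 had enough counts to be tested. The lowest count of any of them in any library was 47.

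RNA was sequenced in 24 libraries from the spinal cords of mice aged 8 weeks, 13 libraries labelled male and 11 female. The strain label, shared by all groups, is B6J;CASTxB6.129. The mice carried either wild-type Gars or 1 copy of the Gars P278KY mutation, a change in the gene of glycyl-tRNA synthetase, and they were Gcn2+/+, Gcn2+/- or Gcn2-/-. Gcn2+/+ mice had wild-type Gars in 4 libraries and mutant Gars in 4. Gcn2+/- mice had wild-type Gars in 4 libraries and mutant Gars in 4. Gcn2-/- mice had wild-type Gars in 3 libraries and mutant Gars in 5. Sex was unevenly spread over the groups. In Gcn2+/+ mice, wild-type replicate 4 and mutant replicates 2, 3 and 4 were female. In Gcn2+/- mice, wild-type replicate 4 and mutant replicates 3 and 4 were female. In Gcn2-/- mice, wild-type replicates 2 and 3 and mutant replicates 4 and 5 were female. The main fit has a term for sex, but single-library values and counts of groups that do not overlap are not adjusted for it. The labels do not say in words that each library is a separate animal, so the tests below measure the spread between these libraries. They also do not say which part of Gcn2 (gene symbol Eif2ak4) the deletion removes or in which cells it acts. The design asks whether the response to mutant Gars needs Gcn2.

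Each synthetase joins an amino acid to its own tRNAs, and separate nuclear genes serve the cytosol and the mitochondria for most amino acids. Gars and Kars are exceptions, since each supplies both compartments. Several cytosolic synthetases sit in a complex held together by Aimp1, Aimp2 and Eef1e1. Gcn2 is a kinase that responds to uncharged tRNA and stalled ribosomes by phosphorylating eIF2 alpha, which raises translation of the transcription factor ATF4. Many cytosolic synthetase genes are known ATF4 targets, whereas the mitochondrial ones are generally not described as such. Dominant Gars mutations cause a neuropathy of motor and sensory axons.

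The promoters of these genes were searched for a stretch that ATF4 and its partners of the C/EBP family bind in many stress genes, TGATGNAA on either strand (TTNCATCA on the other), within 250 bases before and 50 after the RefSeq start on GRCm38.p6. A promoter was matched for 31 of the 40 genes, all but Cars, Hars, Lars, Nars, Rars, Vars, Wars, Hars2 and Pars2. From general knowledge, 13 of the cytosolic genes are counted here as described ATF4 targets. They are Aars, Cars, Eprs, Gars, Iars, Lars, Mars, Nars, Sars, Tars, Wars, Yars and Xpot. Earlier results of these data were known when this list was made, so fold change counts over it are not independent evidence. Of those 13, 9 had a matched promoter. The motif lay in 5 of these 9 (55.6%), in 0 of 8 promoters of the other cytosolic genes and in 0 of 14 mitochondrial ones. Of all 27025 genes with a promoter in the table, 4.51% held it. A match in each of the 5 is printed below with 11 bases on each side, 5′ to 3′ along the gene's own strand with the motif in capitals, because these counts rest on them:
Aars, chr8:111033840-111033869, plus strand: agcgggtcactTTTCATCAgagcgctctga
Gars, chr6:55037960-55037989, plus strand: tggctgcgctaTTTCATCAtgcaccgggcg
Iars, chr13:49682126-49682155, plus strand: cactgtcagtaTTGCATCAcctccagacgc
Tars, chr15:11399655-11399684, minus strand: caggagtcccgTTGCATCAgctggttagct
Yars, chr4:129189895-129189924, plus strand: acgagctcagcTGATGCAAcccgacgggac

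The printed motif began 30 bases before the start in Gars and 15 bases before it in Tars. In Aars, Iars and Yars it began 9, 7 and 3 bases after the start. Of the printed stretches, only that of Yars held it as TGATGCAA on the gene's strand. A match is a stretch of letters and not a measured binding site. The Mars promoter had no match in this window.

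Library totals ran from 19.7 to 32.4 M counts (M, mega). Markers of the labelled tissue were high in every library, with Snap25, a synaptic gene of neurons, at 1407 to 2206 CPM (the count relative to the library's total, after TMM scaling), and Mbp, a myelin gene of oligodendrocytes, at 10634 to 16054 CPM. Chat, which makes acetylcholine in motor neurons, had 13.7 to 25.1 CPM. Eif2ak4 checked the Gcn2 labels, with group means of 31.2 and 32 CPM in Gcn2+/+, 22.7 and 22.4 in Gcn2+/- and 13.6 and 13 in Gcn2-/- mice. The Gars labels have no such check, since the mutation alters the protein. In 4 libraries the summed level of 10 Schwann cell markers, which peripheral nerve roots bring in, was above 1000 CPM, against 153 to 400 CPM in the other libraries. They were mutant replicates 2 (1194 CPM) and 4 (2490) of the Gcn2+/+ mice and wild-type replicates 1 (1195) and 3 (2102) of the Gcn2+/- mice, and the main results that use them are also given without them. Bone marrow and neutrophil markers summed to at most 8.85 CPM in any library.

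Levels between genes were compared per transcript length, in TPM, a share of all transcripts. The cytosolic genes had mean levels of 22.2 to 259 TPM over the 24 libraries, with a median of 52.5, and the mitochondrial genes 3.57 to 391 TPM, with a median of 12. Sars, which charges serine tRNA, led the cytosolic genes at 259 TPM, followed by Nars, for asparagine, at 208 and Gars at 115. Lars, for leucine, was the lowest cytosolic gene at 22.2 TPM. Among the mitochondrial genes Lars2, the leucine enzyme, had 391 TPM, and the next were Iars2 and Hars2 at 26.4 TPM each. Wars2, for tryptophan, was lowest at 3.57 TPM. Apart from Lars2, only Iars2 and Hars2 had a mean level above that of Lars. Neighbours in this order mostly overlapped over libraries, as Yars (70.4 to 107 TPM), Kars (76.1 to 98.5) and Aars (72 to 107) did, while the lowest Nars library (187 TPM) lay above the highest Gars library (127).

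**Figure D1:**
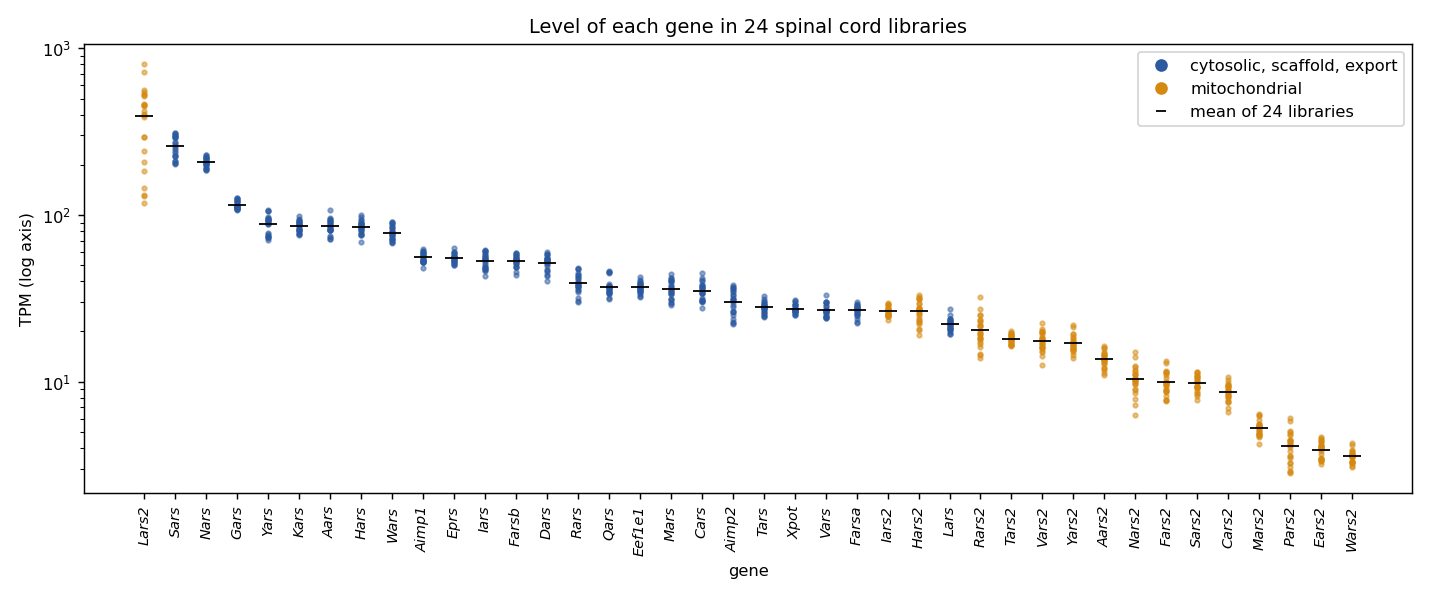
Level of each of the 40 genes in TPM (log axis), ordered by mean, with a point for each of the 24 libraries, a black line at the mean, cytosolic genes in blue and mitochondrial genes in orange. Lars2 stands at the left with a mean of 391 TPM and the widest spread, and the mitochondrial genes otherwise fill the right side down to 3.57 TPM.

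With Gcn2 intact, mutant Gars went with slightly higher mRNA of a few cytosolic synthetases. Cars, the cysteine enzyme, and Wars, the tryptophan enzyme, passed the test, at 1.25-fold and 1.18-fold, and they are 2 of 24 cytosolic genes. Of the 16 mitochondrial genes, 0 passed. Over all 17409 genes tested, 0.632% passed in either direction and 0.213% rose. A gene is said to rise or fall where the adjusted p of edgeR's quasi-likelihood test was below 0.05. In bulk tissue, fewer cells of a type and less RNA per cell cannot be told apart.

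Cars had 37.9, 38.4, 35.7 and 33.2 CPM in the 4 Gcn2+/+ libraries with wild-type Gars and 41.4, 49.7, 46.5 and 43.5 CPM in the 4 with mutant Gars. Every mutant library was above every wild-type library. The log2 fold change was 0.32 ± 0.07 (standard error, as for all fold changes here), with an adjusted p of 0.0498 by edgeR.

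Wars had 104, 107, 107 and 100 CPM with wild-type Gars and 122, 121, 130 and 117 CPM with mutant Gars. These groups did not overlap either. The log2 fold change was 0.24 ± 0.05 (adjusted p 0.0334). Each of these calls held in 5 of 16 alternatives. With any of wild-type replicates 2, 3 and 4 or mutant replicates 2 and 3 left out, neither gene passed. Without mutant replicate 1 only Cars passed (Wars 0.25, adjusted p 0.0735), and without mutant replicate 4 only Wars did (Cars 0.34, adjusted p 0.0581). With the number in each library's title as a block, Cars had 0.37 (adjusted p 0.0916) and Wars 0.25 (adjusted p 0.108). Without the 4 libraries with high Schwann cell markers, Cars had 0.28 (adjusted p 0.218) and Wars 0.27 (adjusted p 0.108).

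Mars, the methionine enzyme, and Iars, the isoleucine enzyme, had changes as large as that of Wars and missed the threshold. Mars had 51.4, 46.9, 45.1 and 48 CPM with wild-type Gars and 55.8, 58, 55.3 and 58.4 CPM with mutant Gars, a log2 fold change of 0.24 ± 0.06 (adjusted p 0.0532). Iars had 115, 109, 114 and 110 CPM with wild-type Gars and 134, 130, 139 and 124 CPM with mutant Gars, a log2 fold change of 0.24 ± 0.06 (adjusted p 0.0608). The groups did not overlap for either gene. Without wild-type replicate 1, both passed (adjusted p 0.0203 for Mars and 0.0365 for Iars). Rars, the arginine enzyme, was also separate between groups, at 32.4 to 36.4 CPM with wild-type and 38.2 to 43.4 CPM with mutant Gars (0.26 ± 0.09, adjusted p 0.152). In all, 5 of 24 cytosolic genes (20.8%) were higher in every mutant than in every wild-type library, beside 4.06% of all genes tested, and 0 of 24 were lower throughout. Without the same 4 libraries, Mars had 0.22, Iars 0.29 and Rars 0.30 (adjusted p 0.251, 0.143 and 0.312). The 2 mutant libraries left were then above all 4 wild-type libraries in 9 of 24 cytosolic genes (37.5%), beside 12.4% of all genes.

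The remaining described ATF4 targets had smaller values. Aars, for alanine, had 0.15 ± 0.07, Sars 0.14 ± 0.07 and Tars, for threonine, 0.13 ± 0.06, and none of the 3 passed. Of the 13 described targets, 12 had a log2 fold change above 0, with a median of 0.13. Of the 11 other cytosolic genes, 5 were above 0, with a median of -0.02. All genes tested had 52.7% above 0 and a median of 0.01. Of the 13, 7 had an unadjusted p below 0.05, a share of 53.8%, beside 17.3% of all genes. Without the libraries with high Schwann cell markers, 13 of 13 were above 0, with a median of 0.17, and the other cytosolic genes had 7 of 11 above 0 and a median of 0.06.

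Gars itself, the mutated gene, did not pass. It had 134, 141, 141 and 142 CPM with wild-type Gars and 142, 146, 150 and 134 CPM with mutant Gars. The groups overlapped, and the log2 fold change was 0.01 ± 0.04 with a 95% interval of -0.08 to 0.11. Its promoter holds the motif printed above, as do those of Aars, Iars, Tars and Yars. Yars, for tyrosine, did not pass either (0.03, 95% interval -0.17 to 0.22).

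The genes that hold or export rather than charge gave no call. Aimp2, a scaffold protein, had 0.16 ± 0.11, Eef1e1 -0.12 ± 0.08, Aimp1 -0.05 ± 0.07 and Xpot 0.02 ± 0.06. Of 11 genes of the synthetase complex (Eprs, Iars, Lars, Qars, Mars, Kars, Rars, Dars, Aimp1, Aimp2 and Eef1e1), 6 were above 0, with a median of 0.09. The complex thus held both the higher Mars, Iars and Rars and members near or below 0 such as Kars (-0.02) and Dars (-0.12).

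**Figure D2:**
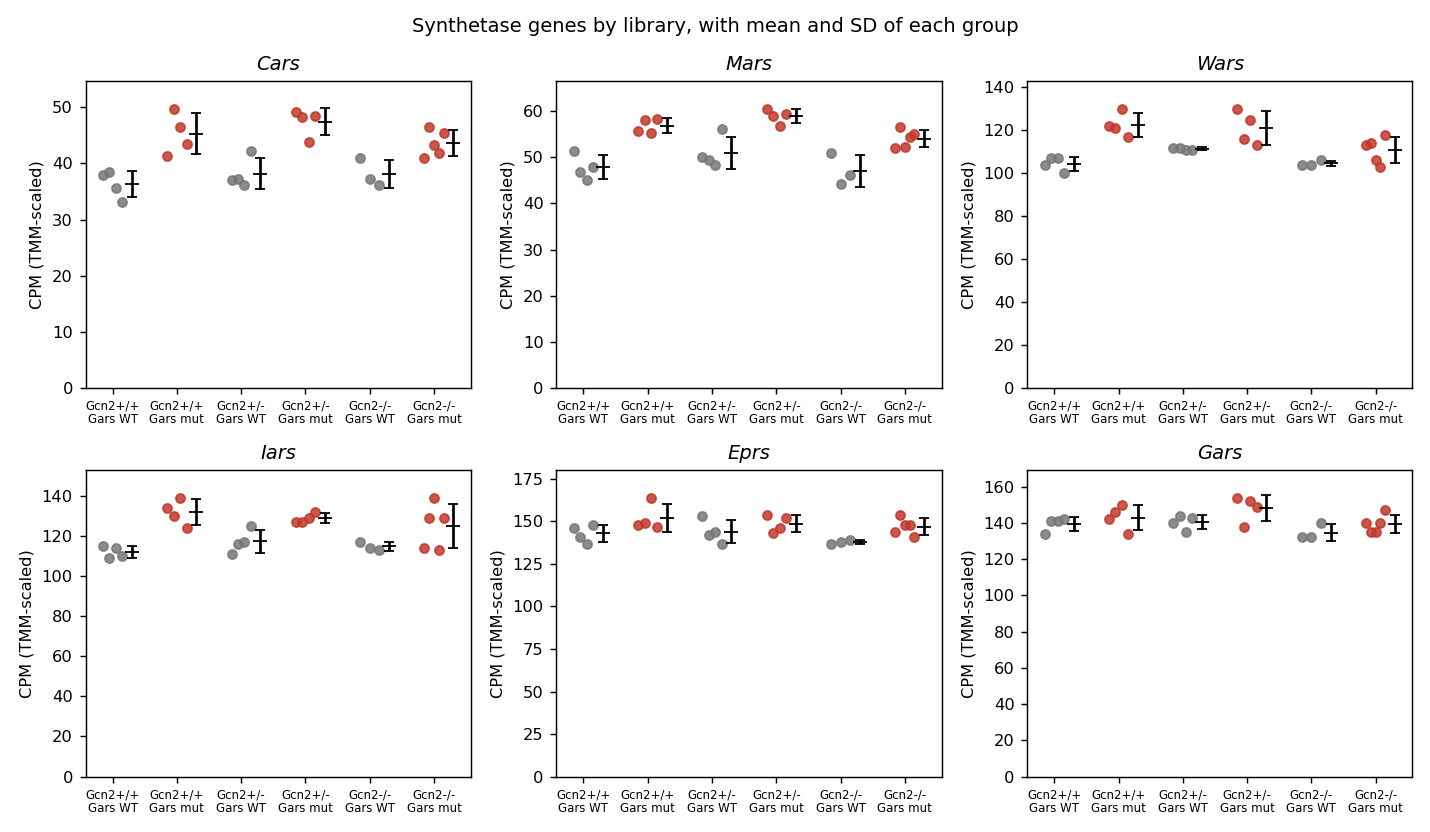
Cars, Mars, Wars, Iars, Eprs and Gars in CPM (linear axes from 0) in the 6 groups, with a point for each library, red for mutant Gars, and a bar for the mean and SD. Mars is higher in every mutant library than in every wild-type library of the same Gcn2 genotype, whereas the Gars groups overlap at 132 to 154 CPM.

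In Gcn2+/- mice Cars and Mars had the smallest p-values, and 0 of the 40 passed the test (0.178% of all genes passed), with 8 of 40 at an unadjusted p below 0.05 beside 14.7% of all genes. Cars had 37, 37.2, 36.1 and 42.2 CPM with wild-type Gars and 49.2, 48.3, 43.8 and 48.5 CPM with mutant Gars (0.32 ± 0.07, adjusted p 0.072). Mars had 50.1, 49.4, 48.3 and 56.1 CPM with wild-type Gars and 60.5, 59, 56.8 and 59.4 CPM with mutant Gars (0.21 ± 0.06, adjusted p 0.163). In each case the wild-type replicate 4 came closest to the mutants, and Cars passed without it (0.39, adjusted p 0.0329). By DESeq2, 2 of the 40 passed here, namely Cars (adjusted p 0.00553) and Mars (adjusted p 0.034). Iars and Wars were also separate between groups, so that 4 of 24 cytosolic genes (16.7%) were higher in every mutant library, beside 3.78% of all genes. Without the 4 libraries with high Schwann cell markers, Cars had 0.26 (adjusted p 0.356) and Mars 0.16 (adjusted p 0.416). All 4 mutant libraries were then above the 2 wild-type libraries left in 7 of 24 cytosolic genes (29.2%), beside 10.4% of all genes. All 13 described ATF4 targets were above 0, with a median of 0.11, beside 47.3% of all genes tested and their median of -0.01. Without those libraries, 12 of 13 were above 0, with a median of 0.09. Farsb, a subunit of the phenylalanine enzyme, had 0.24 ± 0.08 here (adjusted p 0.231) and -0.10 in Gcn2+/+ mice.

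In Gcn2-/- mice, again, 0 of 40 genes passed (0.0115% of all genes, 2 genes, did), and 2 of 40 had an unadjusted p below 0.05 beside 4.35% of all genes. Mars had 50.9, 44.2 and 46.2 CPM with wild-type Gars and 52, 56.5, 52.3, 54.4 and 55.1 CPM with mutant Gars. The groups were separate, as in the other Gcn2 genotypes, and the log2 fold change was 0.20 ± 0.06 (adjusted p 0.878). Cars had 41, 37.2 and 36.2 CPM with wild-type Gars and 41, 46.5, 43.2, 41.8 and 45.4 CPM with mutant Gars (0.19 ± 0.07, adjusted p 0.941). The highest wild-type library met the lowest mutant library. Eprs, the joint glutamate and proline enzyme, was separate between groups as well, at 137 to 139 CPM with wild-type and 141 to 154 CPM with mutant Gars (0.09 ± 0.05, adjusted p 0.941). These 2 genes are 8.33% of the cytosolic class, beside 2.11% of all genes.

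Wars, which passed in Gcn2+/+ mice, had 104, 104 and 106 CPM with wild-type Gars and 113, 114, 106, 103 and 118 CPM with mutant Gars in Gcn2-/- mice (0.07 ± 0.05, adjusted p 0.941). The groups overlapped. Iars had 117, 114 and 113 CPM with wild-type Gars and 114, 129, 139, 113 and 129 CPM with mutant Gars (0.12 ± 0.06, adjusted p 0.941), and replicates 1 and 4 of the mutants lay among the wild-type libraries. Of the 13 described targets, 9 were above 0, with a median of 0.06, beside 50.9% of all genes. None of the 4 libraries with high Schwann cell markers is in a Gcn2-/- group.

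**Figure D3:**
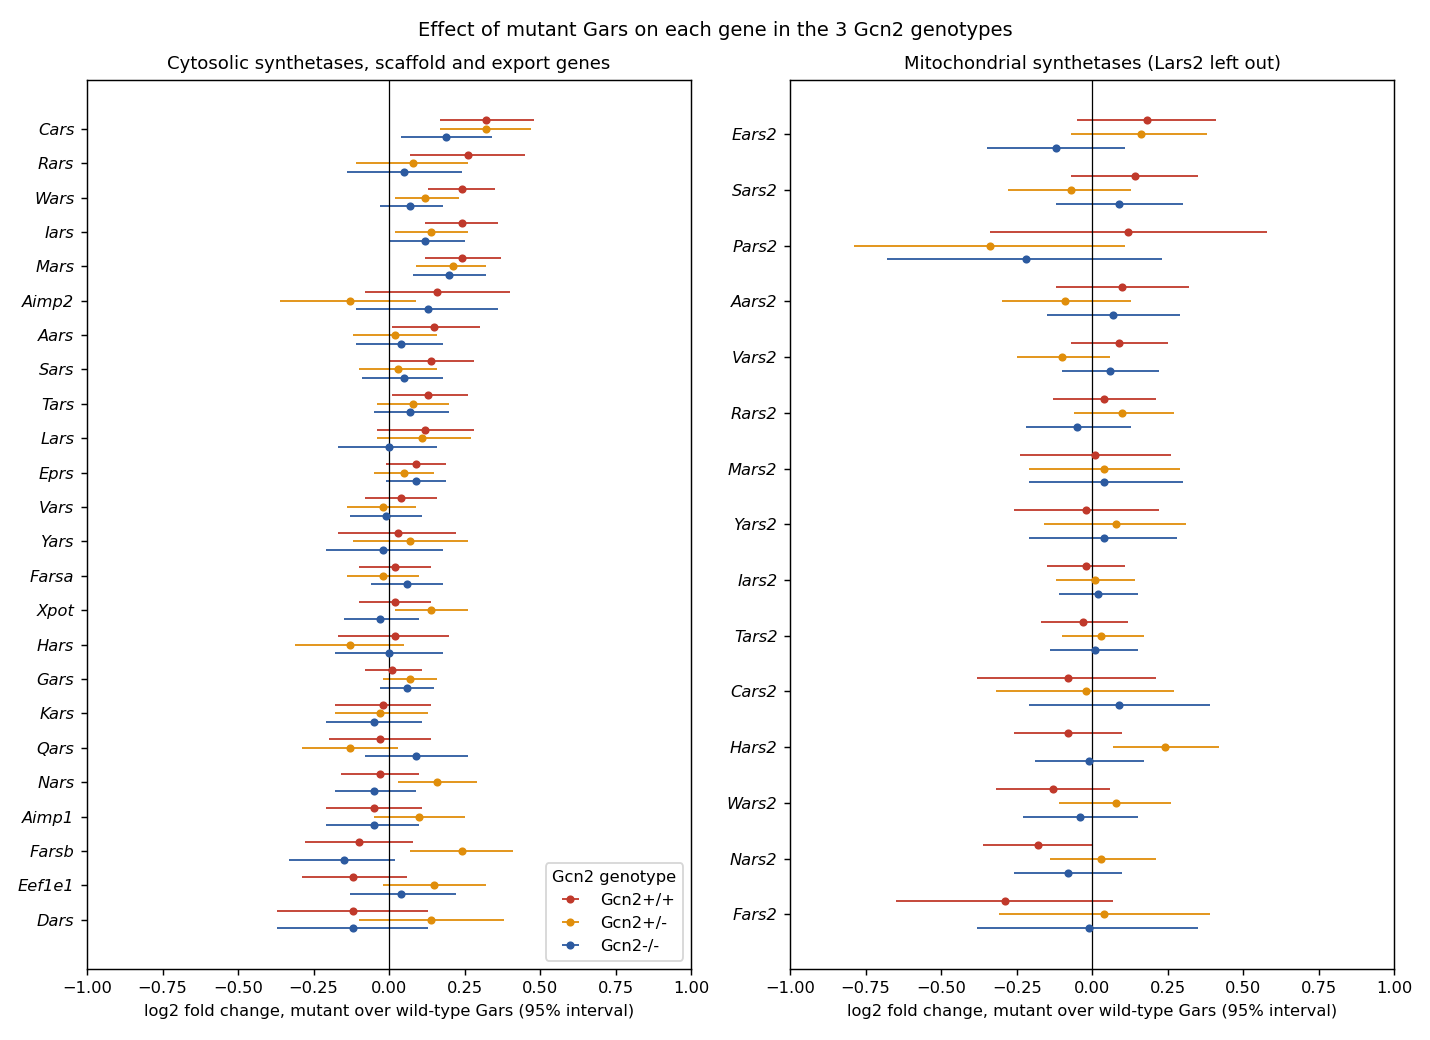
Log2 fold change of mutant over wild-type Gars with its 95% interval for each gene in Gcn2+/+ (red), Gcn2+/- (orange) and Gcn2-/- mice (blue), ordered by the Gcn2+/+ value, without Lars2. Cars and Mars lie to the right of 0 in all 3 genotypes (0.19 to 0.32 and 0.20 to 0.24), and the mitochondrial genes scatter around 0.

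The difference of the Gars effect between Gcn2 genotypes was tested directly. For Gcn2-/- minus Gcn2+/+ mice, 0 of 40 genes passed by edgeR or by DESeq2, beside 0.0115% of all genes by edgeR, and 1 of 40 (Wars) had an unadjusted p below 0.05 beside 4.93% of all genes. Wars had a difference of -0.16 ± 0.07 with a 95% interval of -0.32 to -0.01 (adjusted p 0.937). The Cars difference was -0.13, with an interval of -0.35 to 0.09, which holds both 0 and the whole size of the Cars effect in Gcn2+/+ mice. Rars had -0.21 (-0.49 to 0.06) and Iars -0.12 (-0.30 to 0.06). Of the 13 described targets, 11 had a smaller effect in Gcn2-/- than in Gcn2+/+ mice, with a median difference of -0.06, beside a median of 0.00 and 50% above 0 over all genes. The 11 other cytosolic genes leaned the same way, with 8 of 11 below 0 and a median of -0.02. For Gcn2+/- minus Gcn2+/+ mice, 9 of the 13 were below 0, with a median of -0.04. The 11 other cytosolic genes had 7 below 0 and the same median. All genes tested had 46.5% above 0 and a median of -0.03, so the median of the 13 lay near that of all genes. Both comparisons use the same Gcn2+/+ libraries, and neither lean was tested as a group. Without the libraries with high Schwann cell markers, 12 of the 13 were below 0 for Gcn2-/- minus Gcn2+/+ mice (median -0.10).

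For Gcn2+/- minus Gcn2+/+ mice, 0 of 40 passed beside 3.7% of all genes, and 4 of 40 had an unadjusted p below 0.05 beside 23.4% of all genes. Those 3.7% were 644 genes, and 0 genes passed without the 4 libraries with high Schwann cell markers. Farsb came nearest, with a difference of 0.34 ± 0.12 (adjusted p 0.0834), followed by Hars2, the mitochondrial histidine enzyme, with 0.32 ± 0.12 (adjusted p 0.0986). Farsb passed without the mutant Gcn2+/- replicate 1 (0.39, adjusted p 0.0454) and by DESeq2 (adjusted p 0.046), and Hars2 passed without the wild-type Gcn2+/+ replicate 1 (0.38, adjusted p 0.0478). DESeq2 called 1716 genes in all in this comparison, and Farsb was the only one of the 40 among them. Without the 4 libraries with high Schwann cell markers, Farsb had 0.42 (adjusted p 0.176) and Hars2 0.20 (adjusted p 0.459). All these comparisons share their control or mutant libraries with those above.

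Loss of Gcn2 was also compared at a fixed Gars genotype. With wild-type Gars, 0 of 40 genes passed (0.0287% of all genes did) and 0 had an unadjusted p below 0.05, by edgeR, and 0 passed by DESeq2. The cytosolic fold changes ran from -0.10 to 0.09, with a median of 0.01. With mutant Gars, 0 of 40 passed by either tool, beside 0.494% of all genes by edgeR. Wars alone had an unadjusted p below 0.05, as 10% of all genes did. It had a log2 fold change of -0.15 ± 0.05 from 122 ± 5.23 CPM (SD, n = 4) in Gcn2+/+ to 111 ± 6.29 CPM (n = 5) in Gcn2-/- mutants, with an adjusted p of 0.234 (-0.18, adjusted p 0.45, without the libraries with high Schwann cell markers). Of the 13 described targets, 12 were below 0 in the mutants, with a median of -0.07, and Gars had -0.02 (95% interval -0.11 to 0.07). All genes tested had 49.3% above 0 and a median of 0.00, and 6 of the 11 other cytosolic genes were below 0. The Gcn2+/+ mutants here are those in which the described targets were higher above, so this count is not separate evidence. In neither comparison did any gene have groups that did not overlap, beside 2.27% of all genes higher and 1.94% lower throughout with wild-type Gars, and 2.11% and 2.09% with mutant Gars.

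Because Cars and Mars stood above 0 in all 3 genotypes, the mean of the 3 Gars effects was tested as well, a contrast chosen after these values were seen. In this contrast 4 cytosolic genes rose, and 0 of 40 fell. They were Cars (0.28 ± 0.04, adjusted p 0.00108), Mars (0.22 ± 0.03, adjusted p 0.00109), Wars (0.15 ± 0.03, adjusted p 0.0181) and Iars (0.17 ± 0.03, adjusted p 0.0225). Over all genes 0.448% passed, 0.155% rose and 0.293% fell. All 4 are described ATF4 targets, and Mars and Iars sit in the synthetase complex. Cars passed in each of 31 alternatives, with log2 fold changes of 0.24 to 0.30. Mars passed in 30 of 31 and missed only without the 4 libraries with high Schwann cell markers (0.19, adjusted p 0.0555).

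Wars and Iars were less firm. Without those 4 libraries they had 0.15 (adjusted p 0.0816) and 0.17 (adjusted p 0.103). Both missed with the title number as a block, at 0.16 for Wars (adjusted p 0.111) and 0.18 for Iars (adjusted p 0.0566), while Cars and Mars still passed. Both also missed without Gcn2-/- wild-type replicate 2 (adjusted p 0.0523 for Wars and 0.0687 for Iars). Iars missed without Gcn2-/- wild-type replicate 3 (adjusted p 0.0778) and without Gcn2+/+ mutant replicate 1 (adjusted p 0.0505). Gars had a mean effect of 0.05 with a 95% interval of -0.01 to 0.10, and Eprs (0.08 ± 0.03), Tars (0.10 ± 0.03) and Rars (0.13 ± 0.05) did not pass.

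The described ATF4 targets were also summarised as a mean over the 13 genes, shown in the plot of mean levels by library. Their mean log2 level, set to 0 in Gcn2+/+ mice with wild-type Gars, was 0.13 ± 0.07 (SD, n = 4) in Gcn2+/+ mutants, with libraries from 0.06 to 0.23. It was 0.15 ± 0.03 (n = 4) in Gcn2+/- mutants, where the wild-type libraries had 0.04 ± 0.05 (n = 4). It was 0.07 ± 0.04 (n = 5) in Gcn2-/- mutants, where the wild-type libraries had 0.01 ± 0.01 (n = 3). The mutant and wild-type libraries were separate in Gcn2+/+ mice, met at 0.11 in Gcn2+/- mice and met at 0.02 in Gcn2-/- mice. Without the libraries with high Schwann cell markers, the 2 Gcn2+/+ mutants left had 0.10 and 0.23, and the 2 Gcn2+/- wild-type libraries left had 0.02 and 0.11. The other cytosolic genes had group means between -0.01 and 0.01 and the mitochondrial genes without Lars2 between -0.01 and 0.03.

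**Figure D4:**
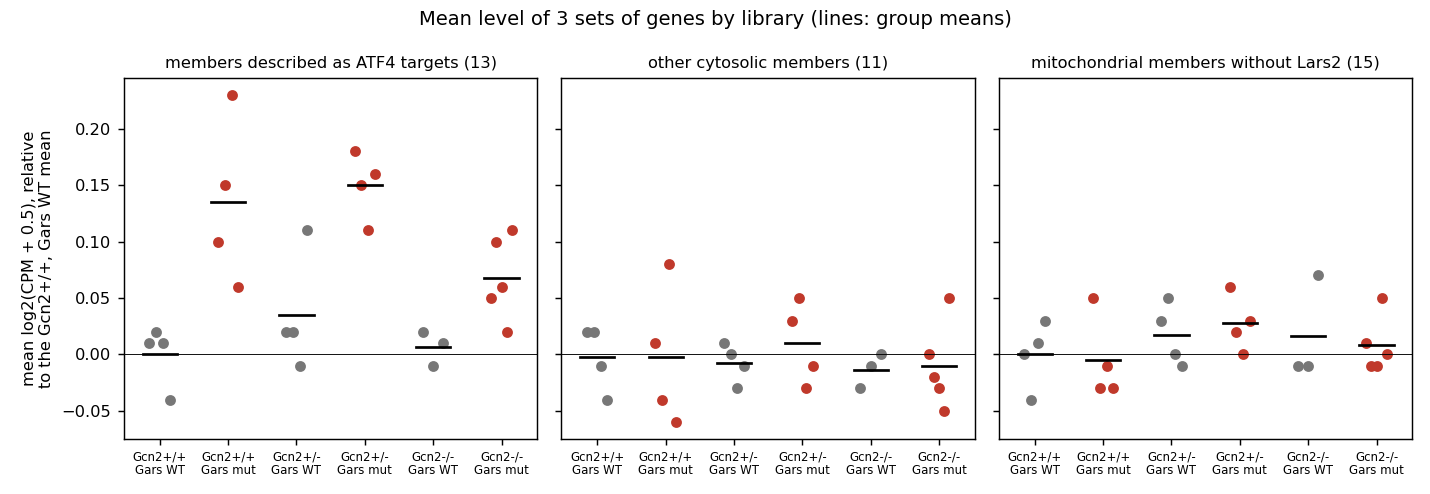
Mean log2(CPM + 0.5) of 3 gene sets in each library, relative to the mean of the Gcn2+/+ libraries with wild-type Gars, with group means as lines and mutant Gars in red. The 13 described ATF4 targets reach 0.23 in a Gcn2+/+ mutant, while the 11 other cytosolic genes and the 15 mitochondrial genes stay between -0.06 and 0.08 in every library.

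The same libraries differed in other tissue markers. Between Gcn2+/+ mice with wild-type and mutant Gars, the summed level of 4 motor neuron markers was 116 to 157 against 82.8 to 92.6 CPM, and that of 4 general neuron markers 2369 to 2780 against 1965 to 2243 CPM. Both sums were lower in every mutant library. The sum of 10 Schwann cell markers was 153 to 235 against 216 to 2490 CPM, and that of 8 markers of meninges and fibroblasts 64.4 to 88.2 against 63.7 to 1291 CPM. These groups overlapped. Of the 4 motor neuron markers, 3 had a log2 fold change below 0 in Gcn2+/+ mice and 1 above. Slc5a7, at 65.4 to 129 CPM over all libraries, made up most of that sum. In Gcn2+/- mice the motor neuron sums overlapped, at 106 to 129 against 85 to 116 CPM. They also did in Gcn2-/- mice, at 117 to 132 against 101 to 132 CPM. The general neuron sums overlapped in both. None of the Schwann cell markers was at 0 in any library, and of the meningeal and fibroblast markers only Slc22a6 was. With the Schwann cell marker level as a covariate, neither Cars (0.32, adjusted p 0.123) nor Wars (0.27, adjusted p 0.0603) passed in Gcn2+/+ mice, while the mean effect of Cars was 0.28 and that of Mars 0.22 (adjusted p 0.00162 each). The part of the neuron, motor neuron and fibroblast differences in these values was not tested.

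The stress response around the synthetases was read from 6 genes. Atf4, the transcription factor, rose in Gcn2+/+ mutants (0.44 ± 0.07, adjusted p 0.00194), as did Sesn2, a stress-induced inhibitor of mTORC1 (0.63 ± 0.09, adjusted p 0.00101). Asns, Chac1, Ddit3 and Trib3 did not pass. Without the 4 libraries with high Schwann cell markers, Sesn2 still passed (0.65, adjusted p 0.00895) and Atf4 did not (0.41, adjusted p 0.0669). In Gcn2+/- mice Atf4 had 0.23 ± 0.07 and Sesn2 0.21 ± 0.09, and in Gcn2-/- mice Atf4 had 0.23 ± 0.07 and Sesn2 0.18 ± 0.09. In each of these genotypes 0 of the 6 passed. The difference of the effect between Gcn2-/- and Gcn2+/+ mice did not pass for Atf4 (-0.21, adjusted p 0.937) or Sesn2 (-0.45, adjusted p 0.775). Nor did that between Gcn2+/- and Gcn2+/+ mice (-0.21, adjusted p 0.173, and -0.42, adjusted p 0.059). Between mutants, 2 of the 6 were lower in Gcn2-/- than in Gcn2+/+ mice by edgeR, beside 0.494% of all genes called. They were Sesn2 (-0.45, adjusted p 0.0135) and the scarce Trib3 (-1.82, adjusted p 0.0276, 0.35 against 1.26 CPM). Neither passed without those 4 libraries (adjusted p 0.0663 and 0.263). With wild-type Gars, Trib3 was also lower in Gcn2-/- than in Gcn2+/+ mice, at -1.13 ± 0.43 (0.437 against 0.937 CPM). Chac1 had -0.31 and Sesn2 0.00 there, 4 of the 6 were above 0, and none passed. In the mean contrast Atf4, Sesn2 and Chac1 rose (adjusted p 1.56e-04, 0.00116 and 0.0169), Chac1 not without those libraries (0.0898). The largest synthetase value in Gcn2+/+ mice was that of Cars, at 0.32, and its difference from Atf4 or Sesn2 was not tested.

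Other genes of tRNA processing, modification and elongation, 39 in number, gave 0 calls for the Gars effect in any of the 3 Gcn2 genotypes by edgeR. Over all genes 0.632% passed in Gcn2+/+, 0.178% in Gcn2+/- and 0.0115% in Gcn2-/- mice. In Gcn2+/+ mice 20 of the 39 were above 0, with a median of 0.01, and 3 (7.69%) had an unadjusted p below 0.05, beside 17.3% of all genes. When the Gars effect of Gcn2+/- mice was set against that of Gcn2+/+ mice, 2 of the 39 passed, beside 3.7% of all genes. Trnt1, which adds the CCA end to tRNAs, differed by 0.43 ± 0.11 (adjusted p 0.0435). Tsen34, a subunit of the tRNA splicing endonuclease, differed by -0.31 ± 0.07 (adjusted p 0.0399). Neither passed without the 4 libraries with high Schwann cell markers, where 0 of all genes did.

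The mitochondrial synthetases gave 0 calls in every comparison tested, the mean effect included. In Gcn2+/+ mice 7 of 16 were above 0, with a median of -0.02, and 0 had an unadjusted p below 0.05. Nars2, for asparagine, had 11.5, 12.6, 12.9 and 13 CPM with wild-type Gars and 11, 11.2, 11.5 and 11.3 CPM with mutant Gars (-0.18 ± 0.09, adjusted p 0.30). It was the only gene of this class lower in every mutant library, 1 of 16 (6.25%) beside 4.16% of all genes. Its direction was not kept in Gcn2+/- mice, at 0.03 (95% interval -0.14 to 0.21). In Gcn2-/- mice it was below 0 in all 16 alternatives (-0.13 to -0.04) and passed in 0. The means there were 12.3 ± 0.235 CPM (SD, n = 3) with wild-type and 11.5 ± 0.689 CPM (n = 5) with mutant Gars, and the groups overlapped.

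Hars2 was the mitochondrial gene with the smallest p in Gcn2+/- mice. It had 20.4, 21.8, 17.8 and 22.2 CPM with wild-type Gars and 23.3, 25.8, 24.3 and 23.5 CPM with mutant Gars (0.24 ± 0.08, adjusted p 0.225). The groups were separate there and overlapped in Gcn2+/+ mice. Without the libraries with high Schwann cell markers it had 0.14 in Gcn2+/- mice (adjusted p 0.573). Hars2 shares 198 bases with its neighbour Hars on the opposite strand, and the strand setting of the counting is not given in the sources used here, so their separate values are uncertain. Hars had -0.13 in the same comparison. Mars overlaps Ddit3 by 68 bases and Wars overlaps Wdr25 by 544 bases in the same way, at mean levels of 15.6 CPM for Ddit3 and 9.98 CPM for Wdr25. Longer overlaps on opposite strands, with more abundant neighbours, were those of Farsb with Sgpp2 (2315 bases), Iars2 with Rab3gap2 (2034 bases) and Aimp2 with Eif2ak1 (1548 bases). Sgpp2 had 88.7 CPM beside 56.1 for Farsb, Rab3gap2 had 111 beside 69.7 for Iars2, and Eif2ak1 had 94.4 beside 12.6 for Aimp2. Cars2 with Naxd (984 bases) and Fars2 with Nrn1 (920 bases) were further such overlaps. Naxd had 22.8 CPM beside 7.89 for Cars2, and Nrn1 had 80.4 beside 10.4 for Fars2. The values of all these genes are uncertain in the same way.

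Pars2, for proline, was the least abundant of the 40 by CPM and the least precise apart from Lars2. Its 95% interval in Gcn2+/+ mice ran from -0.34 to 0.58 around 0.12. Ears2, for glutamate, had 0.18 in Gcn2+/+, 0.16 in Gcn2+/- and -0.12 in Gcn2-/- mice, and its difference between Gcn2-/- and Gcn2+/+ mice was -0.30 (95% interval -0.64 to 0.04). Summed over the 15 mitochondrial genes other than Lars2, the level was 189 ± 12.3 TPM (SD, n = 4) in Gcn2+/+ mice with wild-type Gars and 200 ± 9.6 TPM (n = 4) with mutant Gars, so the groups overlapped. The cytosolic sum was 1526 ± 72.6 TPM (n = 4) and 1733 ± 109 TPM (n = 4) in the same groups, at 1447 to 1613 against 1576 to 1824 TPM. These groups overlapped too. In Gcn2+/- mice the cytosolic sum was 1629 ± 53.7 (n = 4) and 1645 ± 67.6 TPM (n = 4). In Gcn2-/- mice it was 1541 ± 100 (n = 3) and 1622 ± 105 TPM (n = 5). TPM are not TMM-scaled. In Gcn2+/+ mice Sars had means of 232 and 295 TPM, but 170 and 186 CPM.

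Lars2 varied more between libraries than any other of the 40 genes. Its highest library held 6.57 times the CPM of its lowest, whereas this ratio was 1.14 to 2.3 in the other 39 genes, with a median of 1.37. In Gcn2+/+ mice it had 1651, 286, 818 and 1523 CPM with wild-type Gars and 411, 569, 931 and 827 CPM with mutant Gars. In Gcn2+/- mice it had 1167, 867, 934 and 1074 CPM with wild-type Gars and 837, 251, 501 and 383 CPM with mutant Gars. In Gcn2-/- mice it had 1083, 307 and 289 CPM with wild-type Gars and 1176, 596, 926, 1154 and 948 CPM with mutant Gars. In Gcn2+/- mice every mutant library was below every wild-type library, as for 3.41% of all genes. In Gcn2+/+ and Gcn2-/- mice the groups overlapped, and the libraries of each group spanned a wider range than the gap between the group means. The log2 fold changes were -0.63 ± 0.53, -1.03 ± 0.51 and 0.78 ± 0.54 in these genotypes, and none passed. Without the libraries with high Schwann cell markers they were -0.67 in Gcn2+/+ and -0.98 in Gcn2+/- mice.

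The level of Lars2 (chromosome 9, 123366927 to 123462666 on GRCm38) went with that of Gm42418, a gene annotated as a long noncoding RNA on chromosome 17 (39846958 to 39848788). Gm42418 had 2154 to 19377 CPM. The 8 libraries with the lowest Lars2 were also the 8 with the lowest Gm42418, and 6 of the 8 highest were shared. The part of Gm42418 or of what moves it in the Lars2 values was not tested.

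**Figure D5:**
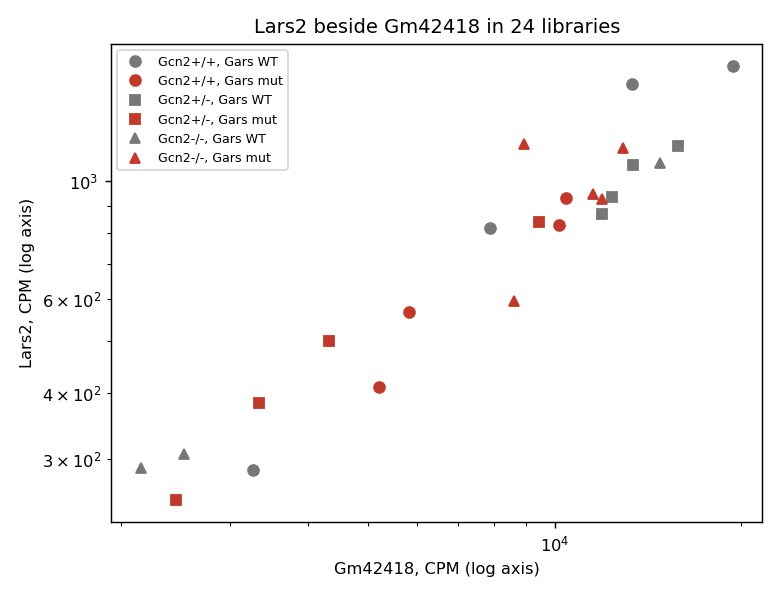
Lars2 against Gm42418 in CPM (log axes) with a point for each of the 24 libraries, shaped by Gcn2 genotype and red for mutant Gars. The points run from 251 to 1651 CPM of Lars2 along a band that crosses all groups.

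The 4 genes that rose in the mean contrast lie on different chromosomes. Cars lies on chromosome 7 (143557230 to 143600090), Mars on chromosome 10 (127296221 to 127311786), Wars on chromosome 12 (108860030 to 108894174) and Iars on chromosome 13 (49682100 to 49734267), all on GRCm38. Gars (55038007 to 55079500) is the only one of the 40 on chromosome 6, and none lies on chromosome 2, which holds Eif2ak4.

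For the sex term of the fit, 0 of the 40 genes passed by edgeR, and 1, Aimp2, had an unadjusted p below 0.05. Its log2 difference, male minus female, was 0.16 ± 0.07 (adjusted p 1). The share of all genes for the sex term is not given here, so nothing is read from these counts.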

How the data were processed

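Poly(A)-selected RNA of whole spinal cord was sequenced with stranded kits, per the labels' protocols, which name more than 1 kit without saying which library had which. The authors deposited, per the file headers, estimated counts per gene (expected counts, which need not be whole) and TPM, where the submitters' processing notes name RSEM 1.2.12 and Bowtie2 2.2.0. The genome build and the annotation were not given in the sources used here. Symbols and positions are from GENCODE M21 (GRCm38), which held 37607 of 38924 identifiers, and genes without a match held 0.261% of counts. RSEM shares out reads among similar genes, so separate values of near-identical genes are uncertain, and TPM keeps no depth.

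The expected counts were rounded, filtered with filterByExpr by group (17409 genes left), normalized by TMM and passed to edgeR 4.0.16 (quasi-likelihood test) in R 4.3.3, in 1 fit of 24 libraries with 6 groups and sex. P-values were adjusted by Benjamini-Hochberg over all 17409 genes, and a call needs an adjusted p below 0.05. The fit was also run on simulated data, whose libraries shared the same mean levels apart from the changes put in. Its recovery of changes as small as those described here is not reported. CPM are TMM-scaled and computed here. Libraries are numbered in accession order within a group. Groups of 3 to 5 libraries limit the precision.

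The genes and lists were chosen with earlier results of these data known. In each comparison the genes named with statistics are those called, Gars, and up to 4 with the smallest p of the synthetases of each compartment and of the scaffold and export genes, and others were chosen after their values were seen. The alternatives were DESeq2 1.42.0, its size factors in edgeR, no filter on low counts, no sex term, the title number as a block, the Schwann cell marker level as a covariate, only the groups compared, and each library left out. The contrast of mean Gars effects and the fit without 4 libraries with high Schwann cell markers were added after seeing the data. A further promoter stretch is not reported here.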

Additional observations from a re-analysis of the deposited data

Results flagged for a closer look

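Of 200 gene and group combinations with 4 or 5 libraries, 8 had a library whose gap to the nearest other exceeded Dixon's 95% critical value, and chance gives this in about 1 in 20 groups. In Gcn2+/+ mice with wild-type Gars, replicate 1 stood apart for 3 genes. It had 134 CPM of Gars (others 141 to 142), 14.7 CPM of Aimp2 (others 11.2 to 11.4) and 24.7 CPM of Vars2 (others 20.6 to 20.8). In Gcn2+/+ mutants, replicate 3 had 164 CPM of Eprs (others 147 to 149) and replicate 1 had 9.23 CPM of Sars2 (others 10.1 to 10.2). In Gcn2-/- mutants, replicate 4 had 22.4 CPM of Farsa (others 24.6 to 25.1) and replicate 2 had 9.9 CPM of Sars2 (others 8.73 to 9.03). In Gcn2+/- mutants, replicate 3 had 43.8 CPM of Cars (others 48.3 to 49.2), the mutant library nearest to the wild-type ones.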

How the results depend on the processing

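For the Gars effect in Gcn2+/+ mice, where 2 of 40 genes passed, 4 passed by DESeq2 and without the sex term (Cars, Iars, Mars and Wars), and 0 passed with no filter on low counts, with the title number as a block, with the Schwann cell marker level as a covariate, with only the groups compared, or without the 4 libraries with high Schwann cell markers. Leaving out single libraries gave 0 to 4. In Gcn2+/- mice, where 0 passed, DESeq2 gave 2 (Cars and Mars) and single libraries left out gave 0 to 1. For the Gars effect of Gcn2+/- set against that of Gcn2+/+ mice, where 0 passed, DESeq2 gave 1 (Farsb) and single libraries left out gave 0 to 1. For the mean Gars effect, where 4 passed, the title number block gave 2 (Cars and Mars), the fit without the 4 libraries gave 1 (Cars), and single libraries left out gave 2 to 4. In Gcn2-/- mice, in their comparison with the effect in Gcn2+/+ mice and in both comparisons of Gcn2 loss, 0 passed in each alternative run. In Gcn2+/+ mice the log2 fold change stayed at 0.26 to 0.39 for Cars and 0.21 to 0.27 for Wars over 16 alternatives. Over all genes, 110 passed in Gcn2+/+ mice, against 646 by DESeq2, 201 without the sex term, 40 with the Schwann cell covariate, 31 without the 4 libraries and 11 with only the groups compared. In Gcn2-/- mice 2 passed by edgeR and 31 by DESeq2. In Gcn2+/- mice it was 31 and 186, for Gcn2+/- minus Gcn2+/+ mice 644 and 1716, and for the mean effect 78 and 206. The causes of the lost calls were not tested. No paired analysis was possible because replicate numbers follow accession order. The title number, which several libraries share, has no stated meaning.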
